A study of Homo sapiens with 8 samples.

Results

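TAL1, HHEX and ERG are 3 transcription factor genes that drive or mark subsets of T cell acute lymphoblastic leukaemia (T-ALL), and their levels were followed over the 8 arrays of a TOX knockdown experiment. The members were the probe sets carrying one of these gene symbols. Each gene had 1 probe set, so the account covers 3 of the 14884 genes with a symbol, and all 3 were among the 8930 genes with a mean log2 intensity of at least 5.18, the 40th percentile, which were kept for testing. These genes were selected on their measured values in the same arrays, so their differences are given as descriptions with standard errors and without p-values.

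The cells came from CCRF-CEM and from HPB-ALL, both established human T-ALL lines, cultured in RPMI with serum. Each line contributed 4 arrays, 1 for each kind of culture: cells carrying the short hairpin RNA shTOX-1, cells carrying shTOX-2, cells carrying a scramble hairpin, and untransduced cells. TOX is an HMG-box transcription factor of T cell development, and both shTOX hairpins are directed against its messenger RNA. Transduced cells were spun with virus, put under puromycin and kept for 2 weeks or more before harvest, so every shTOX and scramble array also differs from the untransduced array by virus and drug selection. No construct was repeated within a line, so the spread between arrays holds differences between hairpins, control kinds and lines as well as technical error.

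TAL1 is a basic helix-loop-helix factor of blood stem cells and the red cell lineage. It is normally switched off as thymocytes mature, and in T-ALL it is often re-activated; it binds DNA at E-boxes together with E proteins (TCF3, TCF12), LMO2, LDB1 and GATA factors. HHEX is a haematopoietically expressed homeobox factor needed in early lymphoid progenitors, and in mouse thymocytes its gene is a known target of the Lmo2 oncogene. ERG is an ETS factor of blood stem cells, megakaryocytes and endothelium that persists in immature T-ALL; with TAL1, LYL1, LMO2, GATA2, RUNX1 and FLI1 it belongs to a group of factors that bind together at stem cell enhancers. CCRF-CEM is known to carry the small deletion that places TAL1 under the promoter of its neighbour STIL.

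For reference, the 250 bases before the start of each gene are shown, from RefSeq on GRCh38.p14, each 5′ to 3′ on the gene's own strand. The windows are chr1:47232336-47232585 on the minus strand for TAL1, chr10:92689705-92689954 on the plus strand for HHEX and chr21:38660668-38660917 on the minus strand for ERG, in each case the furthest upstream start of the table. Capitals mark the E-box letters CANNTG, the letters GATA and the ETS core letters GGAA, searched on both strands (the reverse complement of GATA reads TATC and that of GGAA reads TTCC). No 2 marked matches overlapped in these windows.
TAL1: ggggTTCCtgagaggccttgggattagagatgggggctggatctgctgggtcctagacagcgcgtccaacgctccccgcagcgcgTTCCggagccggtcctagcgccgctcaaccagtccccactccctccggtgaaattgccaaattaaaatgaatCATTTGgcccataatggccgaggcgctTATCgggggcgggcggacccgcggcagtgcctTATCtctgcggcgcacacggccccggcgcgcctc
HHEX: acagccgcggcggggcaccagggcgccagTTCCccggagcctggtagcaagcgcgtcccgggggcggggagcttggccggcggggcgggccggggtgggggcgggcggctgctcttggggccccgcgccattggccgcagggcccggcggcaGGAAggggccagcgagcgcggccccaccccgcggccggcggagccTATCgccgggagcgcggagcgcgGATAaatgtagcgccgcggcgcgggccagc
ERG: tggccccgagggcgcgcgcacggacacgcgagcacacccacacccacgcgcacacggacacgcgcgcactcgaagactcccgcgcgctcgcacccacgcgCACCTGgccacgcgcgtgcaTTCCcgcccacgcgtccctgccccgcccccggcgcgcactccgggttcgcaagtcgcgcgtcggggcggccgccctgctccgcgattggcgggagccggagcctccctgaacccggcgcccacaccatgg

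The TAL1 window held 1 E-box, CATTTG, 93 to 88 bases before the start, 2 GATA matches and 2 ETS cores. The HHEX window held 0 E-boxes, 2 GATA matches, at 53 to 50 and 30 to 27 bases before the start, and 2 ETS cores. The ERG window held 1 E-box, CACCTG, 150 to 145 bases before the start, 0 GATA matches and 1 ETS core. Among all 27305 promoter windows of this length, 62.2% held an E-box, 46.5% a GATA match and 92.8% an ETS core, and a match describes letters in the window, not binding. The G and C share was 64.8% in the TAL1 window, 81.2% in that of HHEX and 77.2% in that of ERG, against a median of 58.0% over all windows. TAL1 had 1 further start in the table, with 54.8% G and C and 0 GATA matches. ERG had 3 further starts, with 36.4%, 46.4% and 44.8% G and C and 1 to 3 GATA matches each, so these features differ between starts. No array value says which start was used in these cells. In CCRF-CEM the deletion named above places TAL1 under the STIL promoter, so the TAL1 windows need not apply to that line.

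TOX itself checked the labels. In CCRF-CEM its log2 level was 10.65 with shTOX-1 and 9.86 with shTOX-2, against 11.03 with scramble and 11.03 untransduced. In HPB-ALL it was 10.16 with shTOX-1 and 8.75 with shTOX-2, against 10.59 with scramble and 10.64 untransduced. All 4 shTOX arrays were below the control arrays of their line, with shTOX-2 the lower of the hairpins in both lines, and the fitted difference between shTOX and controls was -0.96 ± 0.28 (SE; limma, adjusted p = 0.292 over all tested genes). Of the T cell markers measured, CD5, CD7 and LCK were above the threshold of 5.18 on every array, whereas CD2 read between 5.44 and 5.97 in CCRF-CEM and between 4.04 and 4.60 in HPB-ALL; the CD3 genes were not analysed here. Over the tested genes, correlations between arrays were 0.949 to 0.985 within a line and 0.876 to 0.908 between lines. The CCRF-CEM untransduced array stood apart for several immature T cell genes. There CD34, a progenitor surface marker, read 5.52, against 8.05 to 8.55 on the 3 transduced CCRF-CEM arrays. NOTCH3, a receptor active in T-ALL, read 9.23 on that array, against 6.63 to 7.45 on the transduced ones, and PTCRA, the pre-T cell receptor alpha chain, read 11.15, against 7.84 to 9.07.

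TAL1 was higher with either TOX hairpin than on either control array. The CCRF-CEM arrays gave a log2 level of 7.02 with shTOX-1 and 7.02 with shTOX-2, against 6.88 with scramble and 6.46 untransduced. In HPB-ALL it was 6.21 with shTOX-1 and 6.58 with shTOX-2, against 6.03 with scramble and 5.66 untransduced. Both shTOX arrays thus lay above both control arrays in each line without overlap, an arrangement found for 568 of the 8930 tested genes (6.36%) and, among the 3 factors, for TAL1 alone. The order was the same in both lines apart from a tie of the hairpins in CCRF-CEM: shTOX highest, scramble next and untransduced lowest. The gap to scramble was narrow, 0.14 for both hairpins in CCRF-CEM and, for shTOX-1, 0.18 in HPB-ALL.

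HHEX followed TAL1 in CCRF-CEM and departed from it in HPB-ALL. In CCRF-CEM it read 8.13 with shTOX-1 and 7.93 with shTOX-2, against 7.32 with scramble and 6.29 untransduced, a spread of 1.83 between its highest and lowest array. In HPB-ALL it read 6.81 with shTOX-1 and 6.94 with shTOX-2, against 7.03 with scramble and 6.02 untransduced. Both hairpin arrays were therefore above scramble in CCRF-CEM and below scramble in HPB-ALL, while the untransduced array was the lowest in each line by 0.78 or more.

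ERG was not above scramble with both TOX hairpins in either line. In CCRF-CEM it read 7.61 with shTOX-1 and 7.26 with shTOX-2, against 7.33 with scramble and 6.43 untransduced. In HPB-ALL it read 6.05 with shTOX-1 and 6.28 with shTOX-2, against 6.46 with scramble and 5.65 untransduced. The scramble array lay between the hairpins in CCRF-CEM and was the highest of the line in HPB-ALL, above both hairpin arrays. As with the other two factors, the lowest array of each line was the untransduced one.

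**Figure D1:**
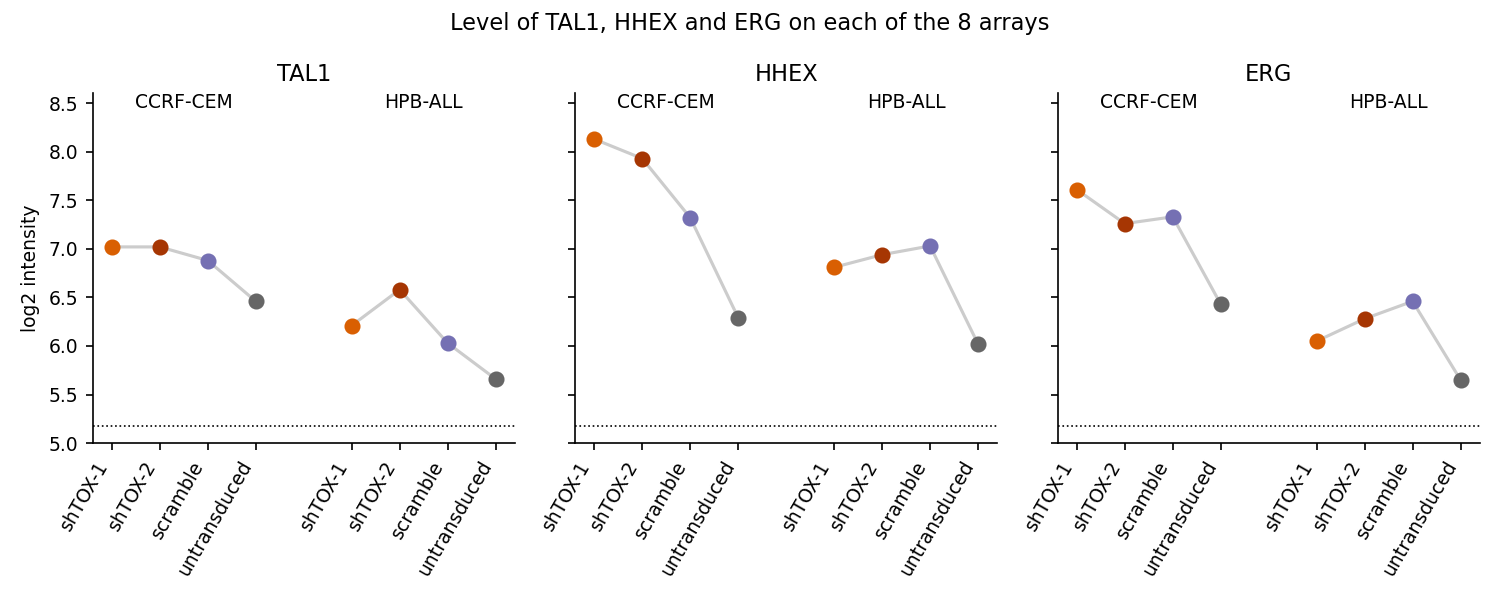
Log2 intensity (vertical axis) of TAL1, HHEX and ERG on each of the 8 arrays, by line and construct; every point is 1 array, lines join the arrays of 1 cell line, and the dotted line is the threshold of 5.18. The untransduced array is the lowest of its line in all 6 sets of points, and TAL1 alone has both shTOX points above scramble in each line (7.02 and 7.02 against 6.88 for CCRF-CEM, 6.21 and 6.58 against 6.03 for HPB-ALL).

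Against both kinds of control together, the shTOX arrays averaged 6.71 against 6.26 for TAL1, a log2 difference of 0.45 ± 0.15 (SE, 4 arrays each) or 1.37-fold. For HHEX they averaged 7.45 against 6.67, a difference of 0.79 ± 0.29 or 1.72-fold, and for ERG 6.80 against 6.47, a difference of 0.34 ± 0.24 or 1.26-fold. The size of the HHEX difference exceeded that of 99.0% of the tested genes, that of TAL1 92.5% and that of ERG 83.8%. In this comparison 0% of the 8930 tested genes were called at a limma adjusted p under 0.05, with 1277 at an unadjusted p under 0.05. Without the CCRF-CEM untransduced array the HHEX difference was 0.49 and the ERG difference 0.11, while without the HPB-ALL scramble array the ERG difference was 0.54; TAL1 lay between 0.36 and 0.56 whichever array was left out.

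Set against scramble alone, the differences were smaller than those against untransduced cells. The shTOX arrays averaged 6.71 for TAL1 against 6.46 with scramble, a difference of 0.25 ± 0.14 or 1.19-fold (SE, 4 shTOX and 2 scramble arrays). HHEX averaged 7.45 against 7.18, a difference of 0.28 ± 0.22, and ERG 6.80 against 6.89, a difference of -0.09 ± 0.17. In size the HHEX difference exceeded that of 86.2% of tested genes, that of TAL1 83.6% and that of ERG 41.1%. None of the 8930 tested genes was called here either (0%; 459 had an unadjusted p under 0.05). The sign of the HHEX difference turned without the CCRF-CEM scramble array, at -0.01, and that of ERG without the HPB-ALL scramble array, at 0.02; the TAL1 difference remained positive, between 0.16 and 0.34, with any array left out.

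Against untransduced cells all 3 factors were higher with shTOX. TAL1 averaged 6.71 with shTOX against 6.06 untransduced, a difference of 0.65 ± 0.14 or 1.57-fold (SE, 4 shTOX and 2 untransduced arrays). HHEX averaged 7.45 against 6.16, a difference of 1.30 ± 0.22 or 2.45-fold, larger in size than that of 99.3% of the tested genes. ERG averaged 6.80 against 6.04, a difference of 0.76 ± 0.17 or 1.70-fold. Calls were frequent in this comparison, at 11.8% of tested genes, and rested heavily on single arrays: 1056 genes were called with all 8 arrays, 349 without HPB-ALL untransduced and 29 without CCRF-CEM untransduced, and leaving out CCRF-CEM shTOX-1, CCRF-CEM shTOX-2 or HPB-ALL shTOX-2 left 608, 654 and 570. Without CCRF-CEM untransduced the differences of the 3 factors were 0.70 for TAL1, 1.00 for HHEX and 0.59 for ERG.

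The scramble hairpin, which does not target TOX, showed the same direction against untransduced cells. Scramble arrays averaged 7.18 for HHEX against 6.16 untransduced, a difference of 1.02 ± 0.25 or 2.03-fold (SE, 2 arrays each). ERG averaged 6.89 against 6.04, a difference of 0.85 ± 0.19 or 1.81-fold, and TAL1 6.46 against 6.06, a difference of 0.40 ± 0.17 or 1.32-fold. Within HPB-ALL alone, scramble minus untransduced was 1.01 for HHEX, 0.81 for ERG and 0.37 for TAL1. Side by side, the scramble and shTOX differences from untransduced cells were 0.85 and 0.76 for ERG, 1.02 and 1.30 for HHEX and 0.40 and 0.65 for TAL1; they share the untransduced arrays. Here 1.06% of tested genes were called, 95 with all arrays and between 3 and 89 with any array left out. That every transduced array lay above the untransduced array in both lines held for all 3 factors, and also for 1829 of the 8930 tested genes (20.5%), with a further 16.7% lying below in the same complete way. Virus and puromycin selection both separate transduced from untransduced cells, so their parts cannot be told apart.

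**Figure D2:**
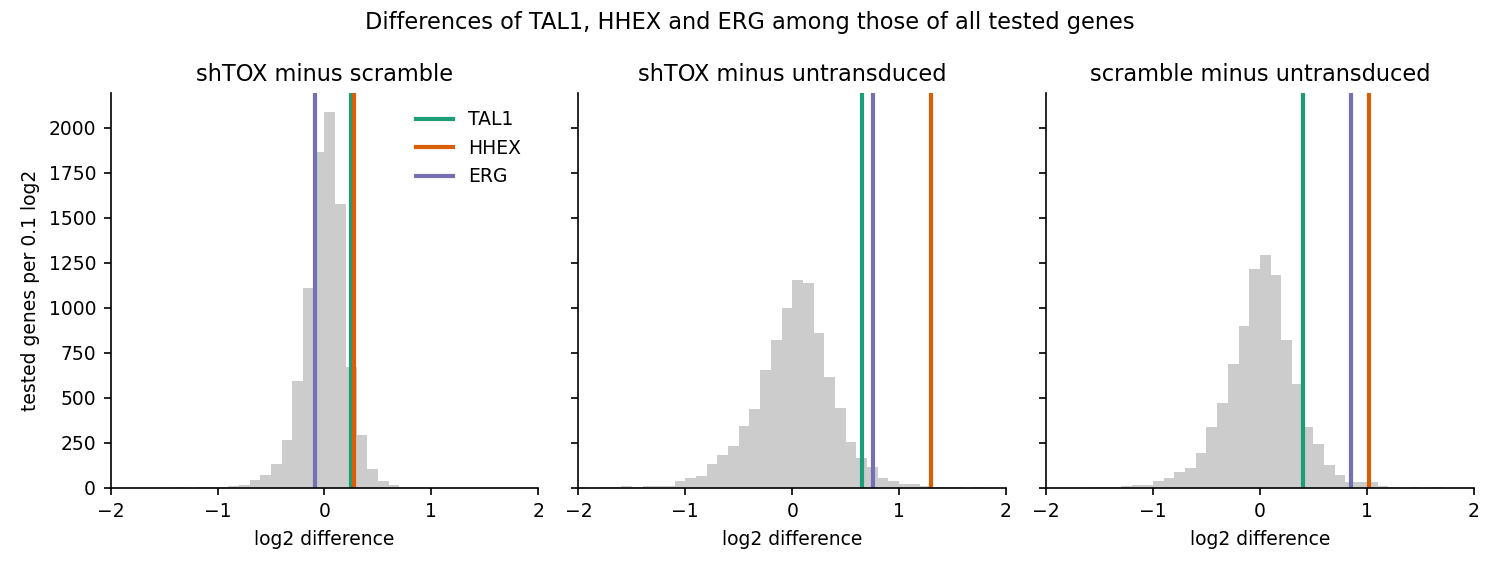
Number of tested genes (vertical axis) by log2 difference (horizontal axis, bins of 0.1) for shTOX minus scramble, shTOX minus untransduced and scramble minus untransduced, with coloured lines at TAL1, HHEX and ERG. Against scramble TAL1 stands at 0.25, HHEX at 0.28 and ERG at -0.09, and against untransduced cells HHEX stands at the right edge, at 1.30 for shTOX and 1.02 for scramble.

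No difference between the hairpins exceeded its standard error for any of the 3 factors. The difference of shTOX-2 minus shTOX-1 was 0.18 ± 0.21 for TAL1 (means of 6.80 and 6.62), -0.03 ± 0.43 for HHEX (7.44 and 7.47) and -0.06 ± 0.36 for ERG (6.77 and 6.83), with 2 arrays each. TOX was lower with shTOX-2 in both lines, by 0.79 in CCRF-CEM and 1.41 in HPB-ALL, and the factors did not follow it in order: in CCRF-CEM HHEX and ERG were higher with shTOX-1, and in HPB-ALL all 3 were higher with shTOX-2.

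The shTOX difference was also read within each line. Within CCRF-CEM, shTOX minus controls was 1.22 ± 0.38 for HHEX (8.03 against 6.80), 0.56 ± 0.34 for ERG (7.44 against 6.88) and 0.35 ± 0.22 for TAL1 (7.02 against 6.67). Within HPB-ALL it was 0.35 ± 0.38 for HHEX (6.87 against 6.53), 0.12 ± 0.34 for ERG (6.17 against 6.05) and 0.56 ± 0.22 for TAL1 (6.40 against 5.84). HHEX was thus the factor with the largest shTOX difference in CCRF-CEM and TAL1 the one in HPB-ALL. The line difference of these differences was 0.88 ± 0.54 for HHEX, 0.44 ± 0.48 for ERG and -0.20 ± 0.31 for TAL1.

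All 3 factors were higher in CCRF-CEM than in HPB-ALL. TAL1 averaged 6.85 ± 0.27 in CCRF-CEM and 6.12 ± 0.39 in HPB-ALL (SD, n = 4), a difference of 0.72 ± 0.15 (SE) or 1.65-fold. HHEX averaged 7.42 ± 0.83 against 6.70 ± 0.46, a difference of 0.72 ± 0.29 or 1.64-fold, and ERG 7.16 ± 0.51 against 6.11 ± 0.35, a difference of 1.05 ± 0.24 or 2.07-fold. The 4 arrays of each line overlapped for each gene, because the untransduced CCRF-CEM array (6.46 for TAL1, 6.29 for HHEX, 6.43 for ERG) fell below the highest HPB-ALL array (6.58, 7.03 and 6.46 in the same gene order). Without the CCRF-CEM untransduced array the line difference was 0.79 for TAL1, 1.01 for HHEX and 1.27 for ERG. Construct by construct, CCRF-CEM was the higher line in 12 of 12 comparisons, an arrangement that 24.2% of tested genes showed over their 4 constructs.

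The size of the line difference varied with the construct, most for HHEX and ERG; this was not tested. For HHEX, CCRF-CEM minus HPB-ALL was 1.32 with shTOX-1 and 0.99 with shTOX-2, against 0.28 with scramble and 0.27 untransduced. For ERG it was 1.56 and 0.98 with the hairpins shTOX-1 and shTOX-2, against 0.88 and 0.78 with scramble and untransduced. For TAL1 it was 0.81 with shTOX-1, 0.44 with shTOX-2, 0.85 with scramble and 0.80 untransduced. Differences between lines were common on these arrays: 27.4% of tested genes were called between CCRF-CEM and HPB-ALL.

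Over the 8 arrays the levels of the 3 factors were correlated. Pearson's r was 0.91 for ERG with TAL1, 0.89 for ERG with HHEX and 0.83 for HHEX with TAL1. After subtracting each line's mean, r was 0.94 for ERG with HHEX, 0.79 for HHEX with TAL1 and 0.74 for ERG with TAL1. These are descriptions over 8 arrays that share lines and constructs, and the untransduced arrays, lowest for every factor, contribute to each. The factors were selected on values of these same arrays, so the r values are no test of a link between them. Untransduced was also lowest in both lines for 20.5% of tested genes, and other genes reached an r of up to 0.991 with a factor.

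Genes of like pattern were sought among the other tested genes with a plain symbol, as defined under processing. Those most like TAL1 over the 8 arrays were TLN1 (talin, a cytoskeletal adaptor of integrins, r = 0.989), HADH (a mitochondrial fatty acid oxidation enzyme, 0.986) and FBXO45 (0.982). With line means removed they were FBXO5 (0.988), SRGAP2 (0.982) and CLSPN (0.981). FBXO5, also called EMI1, restrains the anaphase-promoting complex, and CLSPN (claspin) acts in the replication checkpoint. Those most like HHEX were AKT1 (a survival kinase; 0.981), SPIB (an ETS factor; 0.978) and TEDC1 (0.974), and, with line means removed, SUMO3 (0.991), SQLE (0.989) and MMAB (0.988). SQLE, squalene epoxidase of cholesterol synthesis, read 9.68, 9.42, 8.83 and 7.72 on the CCRF-CEM arrays with shTOX-1, shTOX-2, scramble and none, and 9.13, 8.97, 9.09 and 7.97 on those of HPB-ALL, the order of HHEX in CCRF-CEM. Those most like ERG were VAV1 (0.990), GPR26 (0.982) and SART1 (0.980), and, with line means removed, VAV1 (0.987), ESD (0.981) and HIBADH (0.980). VAV1, a guanine nucleotide exchange factor of T cell receptor signalling, read 10.08, 10.00, 9.97 and 9.47 in CCRF-CEM, against 9.35, 9.48, 9.61 and 9.06 in HPB-ALL, in the same construct order.

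The genes next to each factor on its chromosome were read for comparison, the nearest 3 with a probe set on each side, by the order of the RefSeq gene table. On either side of HHEX lie KIF11, the mitotic kinesin, and EXOC6, an exocyst subunit. KIF11 rose with shTOX against untransduced cells by 0.95 ± 0.13 (limma adjusted p = 0.00569), and CEP55, a protein of cell abscission 3 genes away, rose by 1.13 ± 0.13 (adjusted p = 0.00369). CEP55 also rose with scramble against untransduced cells, by 1.06 ± 0.15 (adjusted p = 0.031). EXOC6 had a difference of 0.45 ± 0.13 (adjusted p = 0.0577) and IDE, an insulin-degrading protease, one of 0.33 ± 0.14 (adjusted p = 0.161). KIF11, EXOC6 and CEP55 shared with HHEX the untransduced array as the lowest in both lines, as 20.5% of all tested genes did. IDE did not, and neither did MARCHF5, the outermost neighbour on the KIF11 side, at -0.09 ± 0.14. Of all tested genes, 11.8% were called for shTOX minus untransduced. Without the CCRF-CEM untransduced array the adjusted p was 0.0934 for KIF11 and 0.0586 for CEP55. The CEP55 difference of scramble from untransduced also lost its call without either scramble array, CCRF-CEM shTOX-2 or CCRF-CEM untransduced, with an adjusted p of up to 0.218.

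Beside TAL1, STIL, a centriole duplication gene, had a shTOX minus untransduced difference of 0.45 ± 0.18 (adjusted p = 0.123) and a line difference of -0.05 ± 0.18 (adjusted p = 0.859), beside 0.65 and 0.72 for TAL1. STIL read 8.71 with shTOX-1, 9.27 with shTOX-2, 9.12 with scramble and 8.61 untransduced in CCRF-CEM, against 8.99, 9.27, 9.04 and 8.61 in HPB-ALL. PDZK1IP1, a membrane protein gene on the other side, had a difference of 0.32 ± 0.19 (adjusted p = 0.302). FOXD2-AS1, a long non-coding RNA, fell with shTOX against untransduced by 0.43 (adjusted p = 0.0452), a call that held in 3 of 15 alternatives, and was higher in CCRF-CEM by 0.44 ± 0.12 (adjusted p = 0.0201), which held in 10 of 15. Beside ERG, the ETS family gene ETS2 showed a shTOX minus untransduced difference of -0.05 ± 0.15 and lay the other way between the lines, lower in CCRF-CEM at -1.45 ± 0.15 (adjusted p = 5.58e-05). BRWD1, a bromodomain protein gene, fell with shTOX against untransduced cells at -0.81 ± 0.15 (adjusted p = 0.0125), and its adjusted p was 0.156 without the CCRF-CEM untransduced array.

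**Figure D3:**
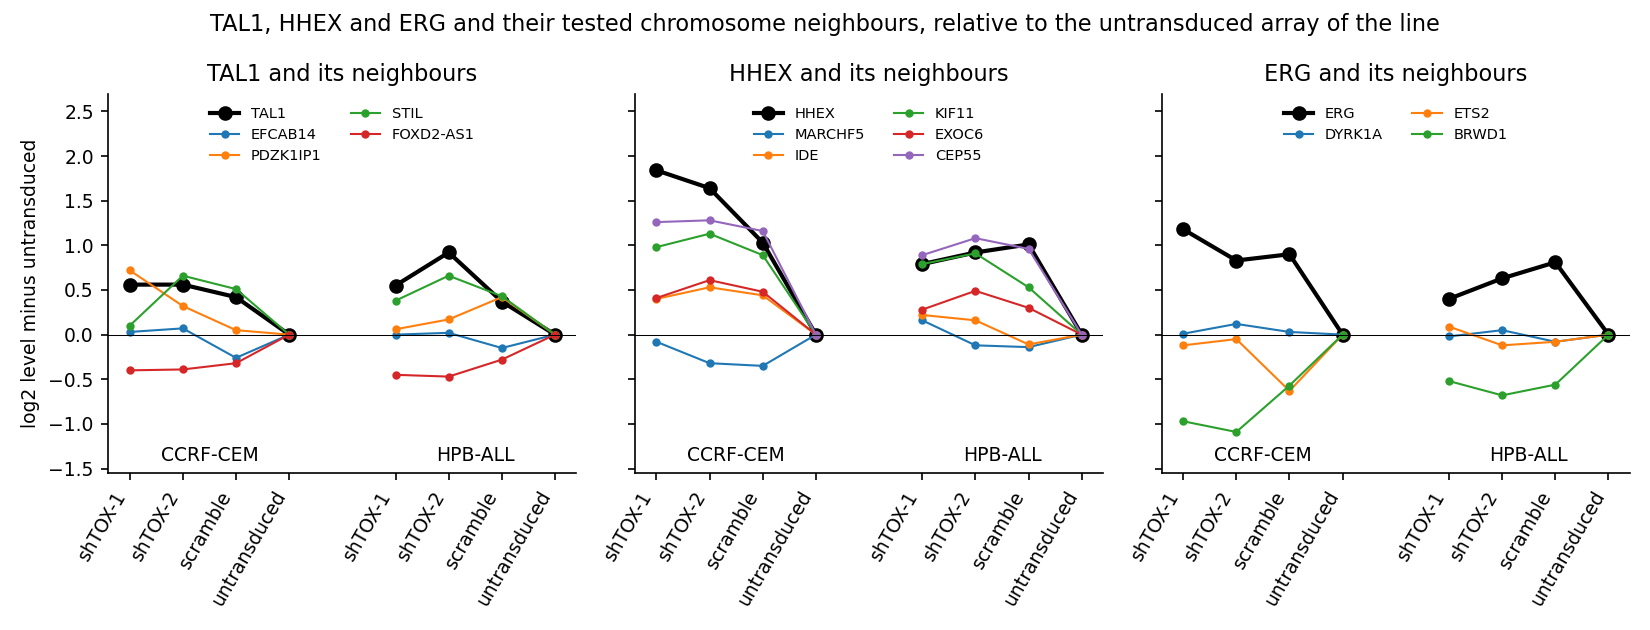
Log2 level minus that of the untransduced array of the same line (vertical axis) for TAL1, HHEX and ERG (thick black) and their tested chromosome neighbours (coloured), by line and construct; each point is 1 array. KIF11 and CEP55 run above 0, as HHEX does, on every transduced array, and BRWD1 runs below 0 beside ERG.

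The partners, relatives and described targets of these factors were read from 7 lists holding 99 genes, of which 73 were measured and 53 tested, each gene counted once. Between shTOX and controls 27 were higher and 26 lower, none was called, and the median difference was 0.009, against 0.026 over all tested genes. Between shTOX and untransduced cells 25 were higher and 28 lower, with a median of -0.049 against 0.039 over all tested genes. EZH2, the histone H3 lysine methyltransferase, rose by 0.49 ± 0.13 (adjusted p = 0.044), and LEF1, a WNT pathway factor of thymocytes, fell at -0.76 ± 0.17 (adjusted p = 0.0226), so 3.77% of the listed genes were called against 11.8% of all tested genes. Both calls were lost without the CCRF-CEM untransduced array, and over 15 alternative settings EZH2 was called in 8, with an adjusted p of up to 0.286, and LEF1 in 12, with an adjusted p of up to 0.194. The untransduced array was the lowest in both lines for 8 of the 53 genes and the highest for 11, against 20.5% and 16.7% of all tested genes.

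The 7 tested genes for partners of the TAL1 complex had mostly negative differences where TAL1 had positive ones, and none was called between constructs. Their median shTOX minus untransduced difference was -0.348, 6 of 7 being negative, against a median of 0.039 over all tested genes. Of all tested genes 11.8% were called in that comparison. Against scramble the median of the 7 was smaller in size, at -0.118, with 5 negative. TCF12, an E protein that pairs with TAL1, had a difference of -0.45 ± 0.13 (adjusted p = 0.051), and LDB1, the bridging protein of the complex, -0.42 ± 0.15 (adjusted p = 0.109). Against all controls GATA3, the GATA factor of T cells, had -0.37 ± 0.12 (adjusted p = 0.301). LMO2, the LIM protein that joins TAL1 to LDB1, lay between 6.20 and 6.67 in CCRF-CEM and between 6.46 and 6.80 in HPB-ALL, with no array apart. Between lines, TCF12 was higher in CCRF-CEM by 0.72 ± 0.15 (adjusted p = 0.00576), as TAL1 was.

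On the list of TAL1 relatives and E-protein antagonists the 3 tested genes were LYL1, TCF4 and NHLH1. The ID genes of that list were not measured. LYL1, a close relative of TAL1, also had its lowest level untransduced. In CCRF-CEM LYL1 read 7.38 with shTOX-1 and 7.04 with shTOX-2, against 6.82 with scramble and 6.25 untransduced. In HPB-ALL it read 7.49 with shTOX-1 and 7.30 with shTOX-2, against 8.15 with scramble and 7.28 untransduced. In HPB-ALL the untransduced array was the lowest by only 0.02, and the shTOX minus untransduced difference was 0.54 ± 0.25 (adjusted p = 0.186). Unlike TAL1, LYL1 was lower in CCRF-CEM, at -0.69 ± 0.26 (adjusted p = 0.0726). TCF4, an E protein, had a shTOX minus untransduced difference of 0.51 ± 0.23 (adjusted p = 0.18), which, at 0.511, was also the median of the 3 genes.

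Of the 12 tested genes described as TAL1 targets in T-ALL, 6 were higher and 6 lower with shTOX against untransduced cells. None was called, beside 11.8% of all tested genes. PTCRA had -1.52 ± 0.44 (adjusted p = 0.0522), or -0.53 without the CCRF-CEM untransduced array (adjusted p = 0.527), and CD69, an early activation marker, 0.66 ± 0.56 (adjusted p = 0.473). Between the lines 7 of these 12 were higher and 5 lower in CCRF-CEM, of which 5 and 1 were called, beside 27.4% of all tested genes called. UBASH3A, a suppressor of T cell receptor signalling, was higher in CCRF-CEM by 3.56 ± 0.16 (adjusted p = 1.76e-07), CD69 by 3.05 ± 0.45 (adjusted p = 0.000711) and PTCRA by 2.35 ± 0.54 (adjusted p = 0.00919). TRIB2, a pseudokinase, was lower in CCRF-CEM at -1.68 ± 0.11 (adjusted p = 1.78e-06). CD69 ranged from 3.43 to 5.85 in HPB-ALL, and its mean there, 4.83, was below the mean level required for testing.

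Of the 14 tested relatives of ERG in the ETS family, 7 were higher and 7 lower with shTOX against untransduced cells. None was called, beside 11.8% of all tested genes, and the median was 0.024. ETV5 had -0.50 ± 0.35 (adjusted p = 0.376) and ERF, an ETS repressor, 0.34 ± 0.13 (adjusted p = 0.119). The untransduced array was lowest in both lines for 4 of the 14 (ERF, ETV2, ETV6 and SPIB), beside 20.5% of all tested genes. For ETV2 the gap in CCRF-CEM was narrow, 5.80 untransduced against 5.82 with shTOX-1. Between the lines 6 were higher and 8 lower in CCRF-CEM, of which 2 and 4 were called, beside 27.4% of all tested genes. ETS1, the main ETS factor of T cells, was higher in CCRF-CEM by 0.90 ± 0.14 (adjusted p = 0.00101), as ERG was, and ETS2, ELF4 at -1.14 ± 0.15 (adjusted p = 0.000302) and SPI1 at -0.90 ± 0.14 (adjusted p = 0.000896) were lower.

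Of the homeobox oncogenes beside HHEX, 5 of 12 were measured and 3 tested. NKX2-5, a cardiac homeobox gene activated in some T-ALL, was the highest untransduced in both lines and had a shTOX minus untransduced difference of -0.50 ± 0.15 (adjusted p = 0.0567), opposite in sign to HHEX. NKX2-1 had 0.11 ± 0.13 (adjusted p = 0.629), and the median of the 3 was 0.041. Between the lines NKX2-5 was higher in CCRF-CEM by 0.74 ± 0.15 (adjusted p = 0.0048).

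Of the 8 tested progenitor and immature T-ALL genes, none was called for shTOX against untransduced cells, beside 11.8% of all tested genes. Their median was 0.062. CD34 had 1.18 ± 0.61 (adjusted p = 0.236), and without the CCRF-CEM untransduced array the difference was -0.52. CD44, an adhesion receptor, was higher in CCRF-CEM than in HPB-ALL by 4.02 ± 0.12 (adjusted p = 2.94e-08). CD34 was higher in CCRF-CEM by 3.01 ± 0.54 (adjusted p = 0.00237). On the HPB-ALL arrays CD44 read 3.43 to 3.77 and CD34 4.29 to 5.05, all below the mean level required for testing. The sizes of their line differences are therefore measured against levels under that threshold. BCL2, the survival factor, was lower in CCRF-CEM at -1.47 ± 0.20 (adjusted p = 0.00036). Among the 11 tested other T-ALL factors, 3 were higher and 8 lower with shTOX against untransduced cells, with a median of -0.317. The untransduced array was highest in both lines for 5 (NOTCH1, MYC, BCL11B, LEF1 and TOX), and for 16.7% of all tested genes. TOX is among them as the targeted gene, and in CCRF-CEM it read 11.03 both untransduced and with scramble. NOTCH3, BCL11B and LEF1 were higher in CCRF-CEM, by 2.14 ± 0.46 (adjusted p = 0.00645), 1.27 ± 0.11 (adjusted p = 1.22e-05) and 0.99 ± 0.16 (adjusted p = 0.00116).

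**Figure D4:**
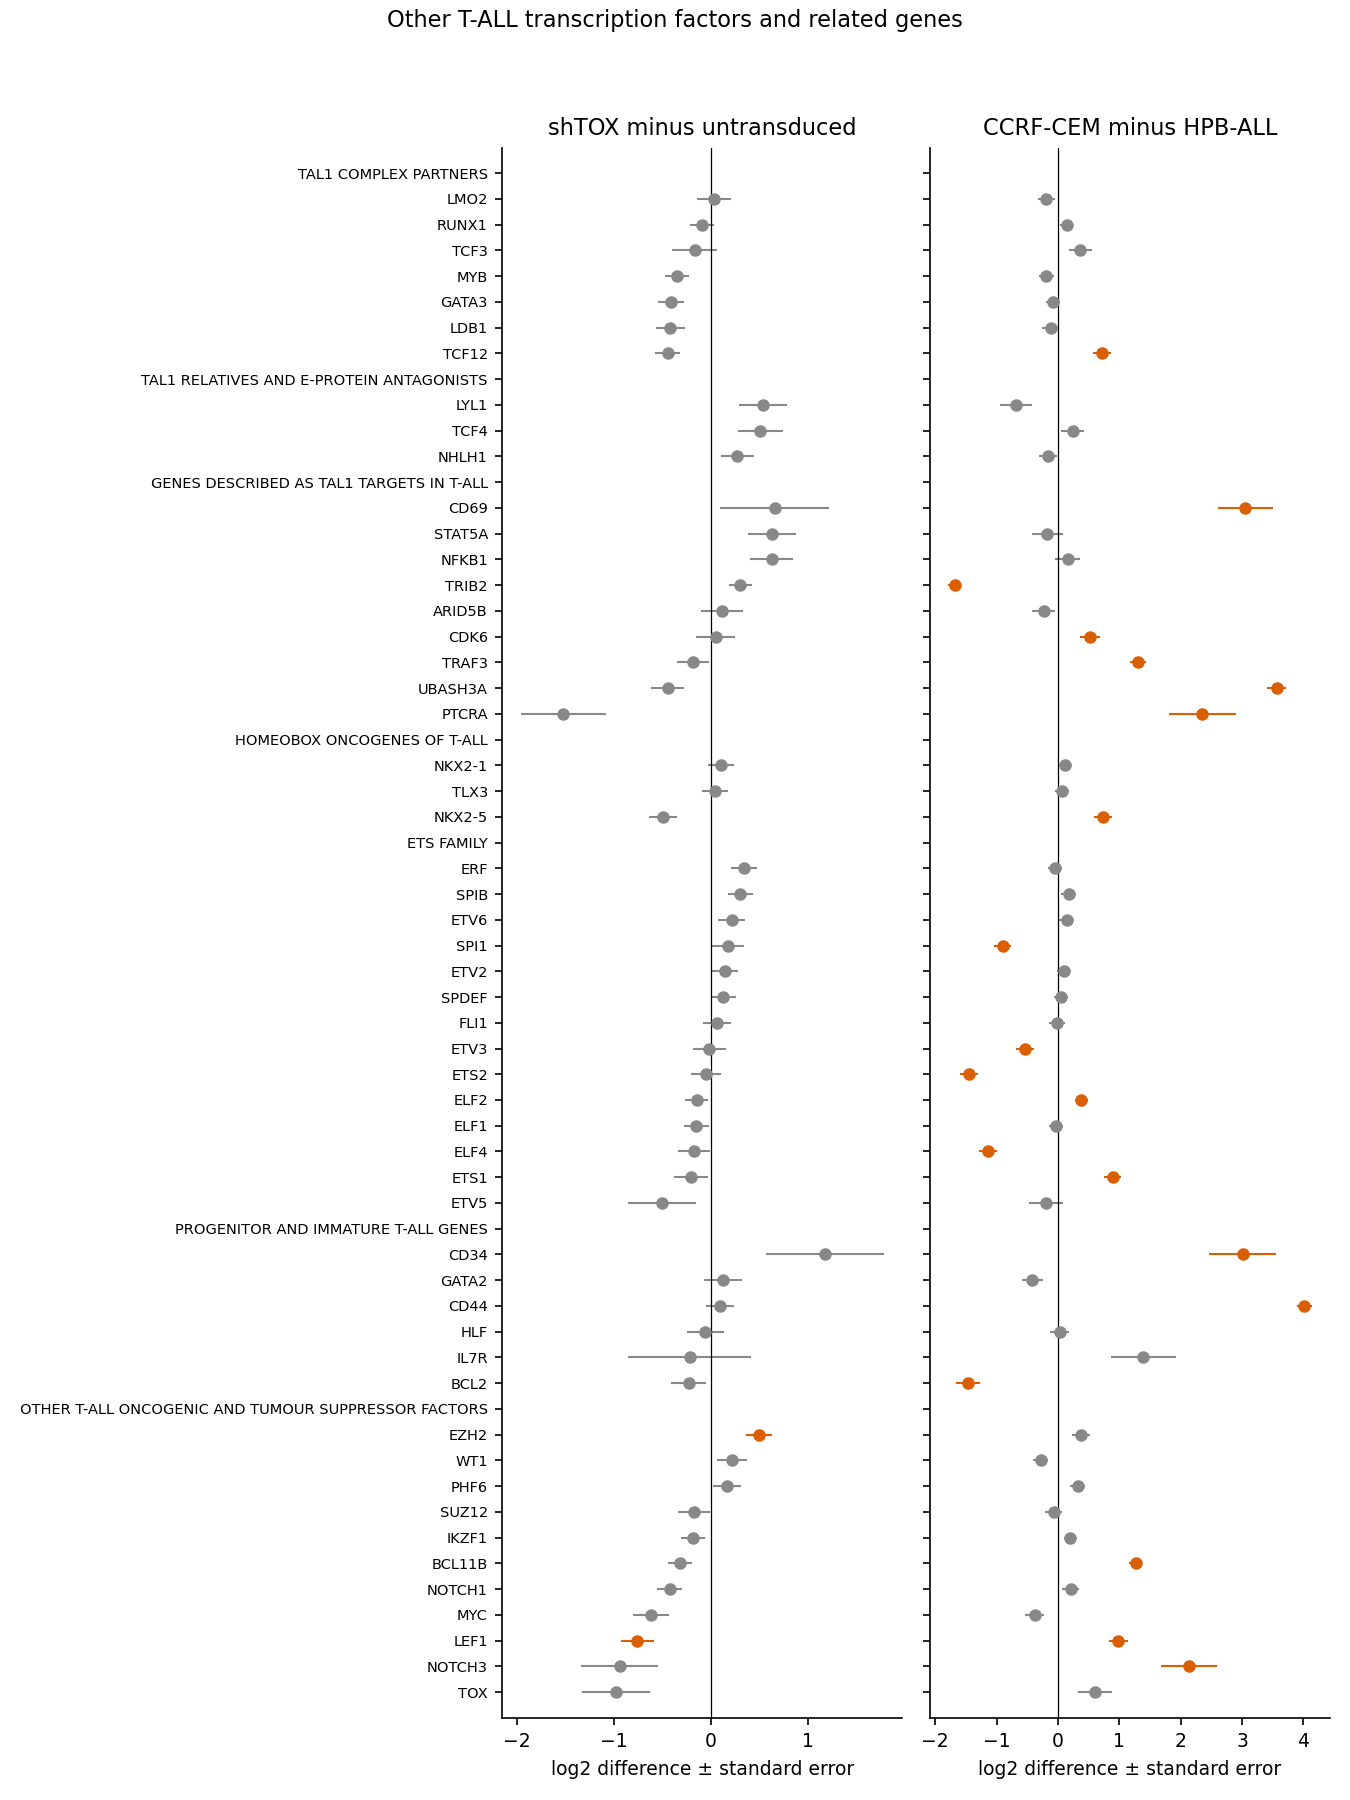
Log2 difference with its standard error (horizontal axis) of each tested listed gene for shTOX minus untransduced (left) and CCRF-CEM minus HPB-ALL (right), grouped by list; orange points have a limma adjusted p under 0.05. On the left EZH2 (0.49) and LEF1 (-0.76) are orange, and on the right 20 of the 53 genes are (37.7%, beside 27.4% of all tested genes), 14 of them higher in CCRF-CEM.

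ERG and TAL1 are also genes of other blood and vessel cells, so markers of those cells were read beside them. The 2 measured erythroid markers, KLF1 and GATA1, had a summed level (the log2 of their added intensities) of 6.81 to 6.93 with shTOX against 6.76 to 6.81 in controls in CCRF-CEM, and 6.48 to 6.49 against 6.40 to 6.87 in HPB-ALL. The 2 measured megakaryocyte markers, PF4 and GP9, summed to 6.87 to 6.92 against 6.74 to 6.79 in CCRF-CEM and to 6.64 to 6.68 against 6.65 to 6.71 in HPB-ALL. Such sums lie above the level of either gene. Singly, KLF1 read 5.23 to 5.85, GATA1 5.54 to 6.02, PF4 5.93 to 6.32 and GP9 4.98 to 5.46 over the 8 arrays. KLF1, GATA1 and GP9 were thus near the threshold of 5.18. Of 3 measured endothelial markers, KDR and VWF stayed below the threshold of 5.18 on all arrays. PECAM1, which is also on some T cells, read 6.43, 6.62 and 6.28 with shTOX-1, shTOX-2 and scramble in CCRF-CEM, against 5.27 untransduced, and 3.61 to 4.11 in HPB-ALL. MPO, a myeloid enzyme, read 5.10 with shTOX-1, 7.94 with shTOX-2, 7.03 with scramble and 4.83 untransduced in HPB-ALL, and 4.47 to 5.45 in CCRF-CEM. Of the other measured myeloid markers, CD14 and CSF1R stayed below 5.18 on all arrays. LYZ read 4.67, 5.25, 4.86 and 4.40 in HPB-ALL, in the same construct order, and lay below 5.18 on all CCRF-CEM arrays. The part of these markers in the ERG and HHEX levels was not tested. Of the B cell markers 1 of 5 was measured, PAX5, at 5.01 to 5.72. Of the fibroblast and epithelial markers 3 of 5 were measured, and DCN and EPCAM read at most 5.18 while KRT18 read 6.95 to 7.94. The 5 measured T cell markers summed to 11.40 to 11.63 with shTOX against 11.60 to 12.41 in controls in CCRF-CEM, and to 9.38 to 9.68 against 10.36 to 10.47 in HPB-ALL; their part in the TAL1 levels was not tested. In HPB-ALL both shTOX sums were below both control sums, and in CCRF-CEM the ranges overlapped, with shTOX-1 at 11.63 and scramble at 11.60. In bulk RNA of this kind, more cells of a type and more RNA per cell cannot be told apart.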

How the data were processed

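RNA of 8 cultures was hybridised to Affymetrix arrays by the GeneChip WT Plus protocol, per the labels' protocols. The table deposited by the authors holds what its range shows to be log2 intensities, with 1 value for each probe set on each array. How background was corrected and arrays were normalized, and with which software, is not given in the sources used here. Its 53617 probe sets had array medians of 4.62 to 4.71, so a common shift of every gene would not be visible. A single symbol was given to 16098 probe sets, which stood for 14884 genes, and none to 37519. The probe set with the highest mean was taken per gene, and tests covered the 8930 genes whose mean reached the 40th percentile, log2 5.18. Differences were fitted on all 8 arrays with line as a term (R 4.3.3, limma 3.58.1, functions lmFit and eBayes, no trend). Genes whose Benjamini-Hochberg adjusted p over all tested genes was under 0.05 are called. The calls were tested on simulated data for shTOX minus controls only, with equal noise for every gene and no difference between lines. No source says that the arrays came from separate experiments, so p-values reflect the spread of these arrays alone, which may be technical, and the number of arrays limits the precision.

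TAL1, HHEX and ERG and all gene lists were chosen with earlier results of these data known. The lists covered TAL1 complex partners, TAL1 relatives and E-protein antagonists, described TAL1 targets, homeobox oncogenes, the ETS family, progenitor genes and other T-ALL factors. From each list up to 4 called genes by size were named in a comparison, or the 2 with the largest difference where none was called; a few genes outside that rule (LMO2, CD34 by array) were added after their values were seen. Genes of like pattern were the 3 with the highest Pearson r among tested genes with a plain symbol. A plain symbol had only capitals, digits and hyphens and did not start with LOC, LINC, MIR, SNOR, RNU, RNY or OR and a digit. Neighbours were the nearest 3 on each side. Promoter windows were the 250 bases before each start in RefSeq GRCh38.p14. Alternatives were quantile normalization, a shift to the same median, no filter, a filter at the 60th percentile, eBayes with trend, the mean of probe sets, a replicate block and leaving out each array.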

Additional observations from a re-analysis of the deposited data

Results flagged for a closer look

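HHEX lay above scramble in CCRF-CEM and slightly below it in HPB-ALL. The mean of the shTOX arrays minus the scramble array was 0.71 in CCRF-CEM, where both hairpin arrays were above scramble, and -0.16 in HPB-ALL, where both were below it. The HPB-ALL gaps to scramble were -0.23 for shTOX-1 and -0.09 for shTOX-2. Beside them, the standard error of HHEX for shTOX minus scramble over both lines was 0.22. With 1 scramble array in each line, the difference between the lines was not tested.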

How the results depend on the processing

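The differences of TAL1, HHEX and ERG for shTOX minus controls, minus scramble and minus untransduced and between the lines kept their direction under both scalings, the mean of probe sets and the replicate block; ERG against scramble was -0.0215 after quantile normalization. The filters and eBayes with trend do not alter these differences and were run for the counts of calls and for other named genes. With each array left out in turn, shTOX minus scramble ran from 0.16 to 0.34 for TAL1, -0.01 to 0.56 for HHEX (negative without CCRF-CEM scramble, -0.0124) and -0.21 to 0.02 for ERG (positive without HPB-ALL scramble, 0.0244). The calls over all genes depended more on single arrays: 3 to 89 for scramble minus untransduced, 29 to 1092 for shTOX minus untransduced, 0 to 4 for shTOX minus controls, 0 to 1 for shTOX minus scramble, and 1809 to 2466 between the lines. Scramble minus untransduced, with 95 calls, had 162 with the filter at the 60th percentile and 182 with trend. With the replicate block, construct being shared by both lines, it had 9 calls and shTOX minus controls had 16 in place of 0. The deviations of same-named arrays correlated across lines at 0.243 for shTOX-1, 0.378 for shTOX-2, -0.08 for scramble and 0.574 for untransduced, and the labels' numbers name hairpins, so no samples were treated as pairs.

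Of the comparisons of other named genes, 17 changed sign with 1 array left out, over the ranges given here. Where CCRF-CEM untransduced turned the sign, CD34 ran from -0.605 to 2.78 for scramble minus untransduced, -0.0919 to 0.924 for shTOX minus controls and -0.516 to 2.87 for shTOX minus untransduced, ELF4 from -0.604 to 0.0544 for scramble minus untransduced, ETS2 from -0.166 to 0.0678 for shTOX minus untransduced (0.0128 without HPB-ALL shTOX-2), and for shTOX minus controls LYL1 from -0.0386 to 0.449 and PTCRA from -1.25 to 0.0727. Where CCRF-CEM scramble turned it, shTOX minus scramble ran from -0.558 to 1.27 for CD69, -0.970 to 1.87 for IL7R, -0.471 to 0.0911 for LDB1 and -0.619 to 1.28 for PTCRA, and scramble minus untransduced from -0.209 to 0.063 for NKX2-1. Where HPB-ALL scramble turned it, shTOX minus scramble ran from -0.620 to 0.249 for LYL1 and -0.228 to 0.0466 for NKX2-5, and scramble minus untransduced from -0.508 to 0.054 for LDB1 and -0.112 to 0.422 for NHLH1. HPB-ALL untransduced turned CD69 for shTOX minus untransduced, from -0.668 to 1.98. The cause was not tested.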
